A study of Mus musculus with 5 samples.

Results

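The homeodomain transcription factor genes *Lmx1b*, *En1*, *Lhx2* and *Lhx9* were followed through 5 single-cell RNA libraries of mouse penis and limb. They were found by symbol in the gene lists of the count files and are 4 of 32285 genes listed. All 4 were found in every library. The study compared the penis, at an age when its bone (the baculum) begins to ossify, with limbs at a similar stage of ossification. The samples named penis 1, 2 and 3 came from males of postnatal day 6 (P6), with the prepuce removed so that mainly the glans was left. One library came from the forelimb and 1 from the hindlimb of embryonic day 15. The methods name 6 male embryos for the limbs, and how many of them went into each library is not given in the sources used here. The labels give the genotype of all mice as C57BL/6N and the study's methods give C57BL/6J. No mouse carried a transgene or received a treatment. Age and tissue cannot be told apart in these groups. The methods name 3 males from 2 litters, and the labels do not tie a penis library to a mouse or a litter. Whether each penis library came from a separate mouse is thus not known here. The p-values below measure the spread between these libraries only. In comparisons made within libraries, they measure how much the contrast differs from library to library.

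The outgrowing limb bud is patterned along 3 axes. *Lmx1b* encodes a LIM homeodomain factor of the dorsal mesenchyme, where it acts downstream of *Wnt7a* from the dorsal ectoderm. *En1*, an Engrailed homeodomain factor of the ventral ectoderm, restricts *Wnt7a* to the dorsal side. *Lhx2* and *Lhx9* encode closely related LIM homeodomain factors of the distal mesenchyme, where they take part in outgrowth and in signalling with the apical ectodermal ridge. LIM homeodomain factors work with cofactors of the Ldb family, and LIM-only (Lmo) proteins compete for these.

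In the GENCODE M21 annotation of GRCm38 (mm10), *Lmx1b* lies on the minus strand at chr2:33560965-33640511 and *Lhx2* on the plus strand at chr2:38339281-38369733. *En1* lies on the plus strand at chr1:120602418-120607992 and *Lhx9* on the minus strand at chr1:138825186-138848577. All 4 are protein-coding. Antisense genes Gm27197 and Gm13584 lie within *Lhx2*, with at most 3 and 56 UMIs in the filtered cells of any library. A UMI (unique molecular identifier) stands for 1 captured RNA molecule. Gm38011 overlaps *Lmx1b* on the other strand and is not in the count files. The promoters of *Lhx2* and *Lhx9* are shown because the data below found these genes together in the same limb cells. They run from 250 bases before to 50 bases after a RefSeq start in GRCm38.p6, and are read 5′ to 3′ on the gene's strand. *Lhx2* is at chr2:38339031-38339330 (plus strand, the first of 2 listed starts) and *Lhx9* at chr1:138842395-138842694 (minus strand, within the GENCODE span of the gene). Capitals mark TAAT, the core that many homeodomain proteins bind, and GGGCGG, the GC box, each searched on both strands, with no overlap between them here.
Lhx2: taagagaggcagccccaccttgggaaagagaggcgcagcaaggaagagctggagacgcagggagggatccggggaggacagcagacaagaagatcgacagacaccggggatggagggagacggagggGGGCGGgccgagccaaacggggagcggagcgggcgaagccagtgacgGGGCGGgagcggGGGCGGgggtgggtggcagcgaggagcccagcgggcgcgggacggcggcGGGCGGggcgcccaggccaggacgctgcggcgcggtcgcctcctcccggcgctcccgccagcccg
Lhx9: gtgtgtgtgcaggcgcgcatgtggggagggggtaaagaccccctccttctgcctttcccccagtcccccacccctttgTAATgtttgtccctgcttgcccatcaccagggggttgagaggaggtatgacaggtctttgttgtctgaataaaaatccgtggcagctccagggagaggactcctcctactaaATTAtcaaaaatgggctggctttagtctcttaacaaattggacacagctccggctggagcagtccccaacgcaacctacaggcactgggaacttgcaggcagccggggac
The *Lhx2* sequence held 4 GC boxes and no TAAT, and the *Lhx9* sequence held 2 TAAT and no GC box. The promoters of all 4 genes were found in the RefSeq table. Those of *En1* and *Lmx1b* held 1 and 0 TAAT and no GC box, and the second start of *Lhx2* held neither. Over the 32851 promoters of the table, 58.03% held TAAT and 35.66% held the GC box on either strand. G and C made up 74.67% of the *Lhx2* sequence and 55.33% of the *Lhx9* sequence, against a median of 52.67% over all promoters. These matches are letters in a window, not shown binding sites.

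After the study's filters the penis libraries held 5708 to 7085 cells, the forelimb library 22057 and the hindlimb library 20514. Penis cells had a median of 8792 to 9909 UMIs by library, against 5358 in the forelimb and 6057 in the hindlimb. Libraries shared at most 203 cell barcodes (forelimb and hindlimb). *Tbx5*, a forelimb gene, and *Pitx1*, a hindlimb gene, followed the limb labels. Cells were gated by markers. A cell with UMIs of at least 3 markers of a single type other than mesenchyme was given that type's name with the ending -like. Mesenchyme markers did not count against the chondrocyte-, osteoblast-, tendon- and mural-like gates. The other types needed more of their own markers than of mesenchyme markers. Mesenchyme-like cells had at least 3 mesenchyme markers and fewer than 3 of every other type. Cells that met several types other than mesenchyme, or fell short of that margin, were left out. The 4 genes were in no marker list. The mesenchyme-like gate took 58.9 to 60.0% of penis cells, 54.4% of forelimb cells and 52.6% of hindlimb cells. Levels of some defining markers differed widely between libraries within a gate. *Col2a1*, the main cartilage collagen, stood at 99.8 to 127 CPM in chondrocyte-like penis cells and at 3341 to 3838 in those of limb, where CPM is the UMIs of a gene in 1000000 UMIs summed over the cells of a gate. *Bglap*, a late osteoblast gene, stood at 140 to 827 CPM in osteoblast-like penis cells, 5.46 in those of the forelimb and 0 in those of the hindlimb. White blood-like cells, which should lack the 4 genes, served as a measure of background.

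In mesenchyme-like cells, *Lmx1b*, *En1*, *Lhx2* and *Lhx9* were all lower in penis than in limb. *Lmx1b* stood at 0.440, 0.321 and 0.418 CPM in penis 1, 2 and 3 and at 24.6 and 32.7 CPM in forelimb and hindlimb. *Lhx2* stood at 0.269, 0.173 and 0.129 CPM in the penis libraries and at 14.5 and 13.9 in forelimb and hindlimb. *Lhx9* stood at 0.929, 1.14 and 0.997 CPM in penis and at 16.9 and 13.7 in forelimb and hindlimb. The 3 penis libraries lay below both limb libraries for each of these genes. *En1* was the least different of the 4, with 1.81, 1.70 and 1.70 CPM in penis and 13.7 and 12.2 in forelimb and hindlimb, again without overlap. The share of all genes without overlap was not counted. In the edgeR test below, 14630 of the 19951 genes tested had an unadjusted p below 0.05, so differences between these tissues were common.

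Library sums were compared with the quasi-likelihood test of edgeR, and p-values were adjusted by Benjamini-Hochberg across every gene in the fit. A gene was called at an adjusted p below 0.01 and a log2 fold-change beyond 1. In mesenchyme-like cells, *Lmx1b* fell by 6.21 (log2, SE 0.18, adjusted p = 2.1e-08) and *Lhx2* by 6.19 (SE 0.17, adjusted p = 1.9e-08) in penis relative to limb by edgeR. *Lhx9* fell by 3.93 (SE 0.14, adjusted p = 6.7e-08) and *En1* by 2.92 (SE 0.11, adjusted p = 6.6e-08) in the same fit. Of 19951 genes tested there, 12.7% were called lower in penis. *Lhx2* reached the cutoff of the filter on low counts in both limb libraries but in only 1 penis library. It thus passed through the group where it was high, and its call is a description. *Lmx1b*, *En1* and *Lhx9* reached the cutoff in all 5 libraries. Over the UMIs pooled by tissue, *Lmx1b* was 73.3-fold (95% counting interval 54.5 to 101) and *Lhx2* 72.5-fold (47.8 to 116) higher in limb. *Lhx9* was 14.9-fold (12.4 to 18.2) and *En1* 7.44-fold (6.42 to 8.67) higher. These intervals cover counting error only.

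**Figure D1:**
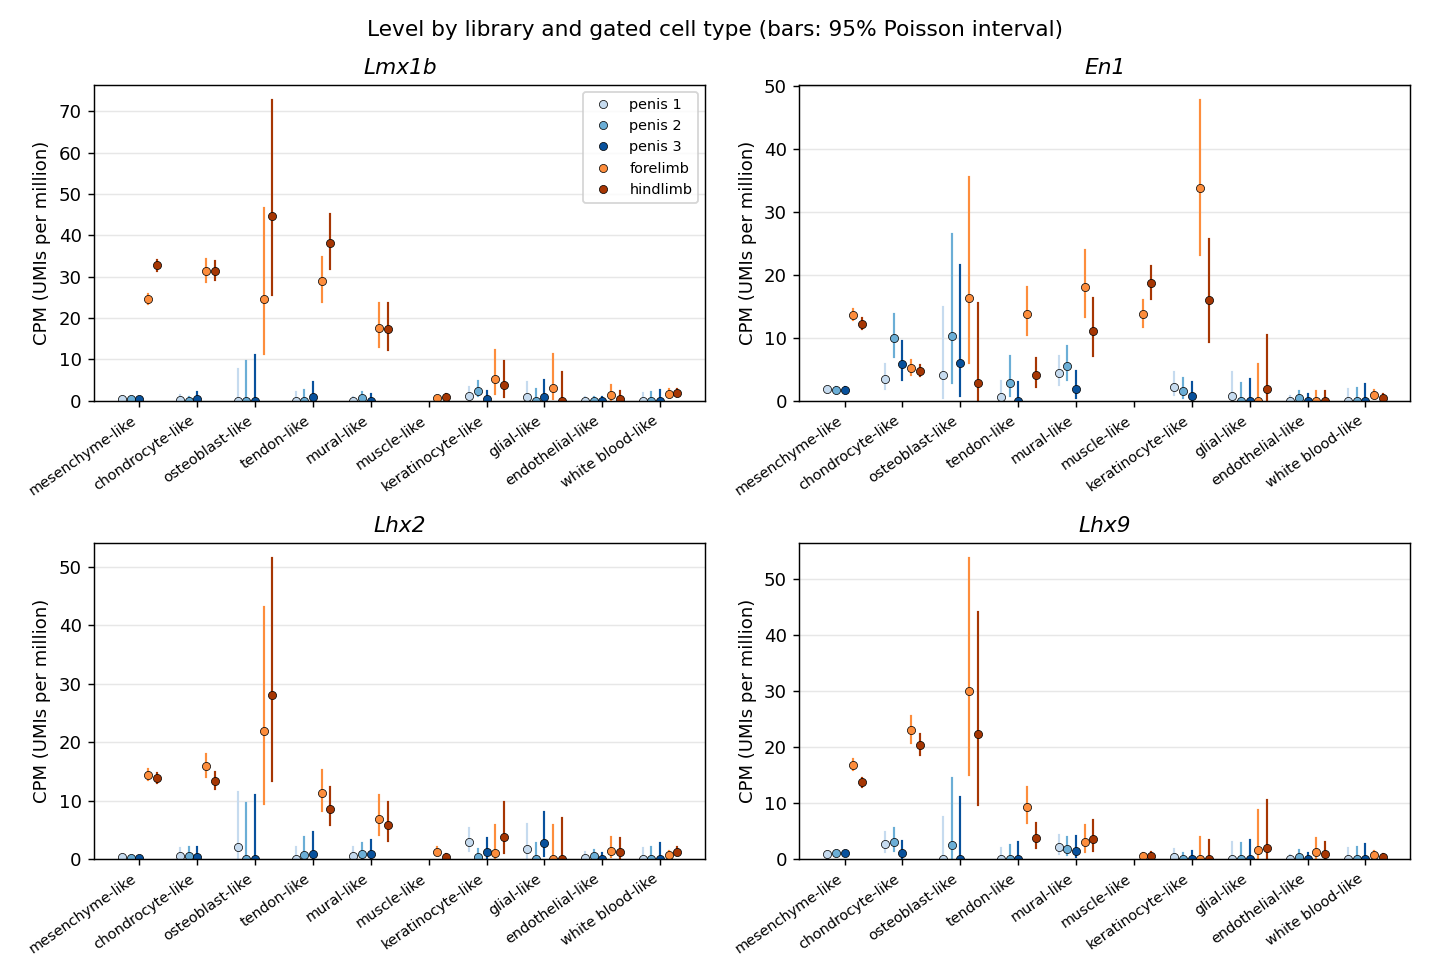
Level of each gene (CPM, linear axis from 0) in every gated type with at least 20 cells, by library; points are library sums and bars 95% Poisson intervals. Penis libraries (blue) lie near 0 for *Lmx1b*, *Lhx2* and *Lhx9* in the mesenchyme-like gate, where limb libraries (orange, brown) lie at 13.7 to 32.7 CPM, and *En1* in chondrocyte-like cells overlaps between the tissues.

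Over all filtered cells the picture was the same in direction. Whole-tissue sums gave *Lmx1b* 0.349 to 0.380 CPM in penis against 20.2 and 26.1 in forelimb and hindlimb. *Lhx2* ranged from 0.272 to 0.497 CPM in penis against 10.7 and 10.3 in limb. *Lhx9* had 0.854 to 1.09 CPM in penis against 12.6 and 10.99, and *En1* had 1.84 to 2.36 against 11.3 and 10.3. By edgeR, *Lmx1b* fell by 6.04 (SE 0.14, adjusted p = 3.5e-08), *Lhx2* by 4.95 (SE 0.17, adjusted p = 1.6e-07), *Lhx9* by 3.67 (SE 0.12, adjusted p = 1.4e-07) and *En1* by 2.46 (SE 0.12, adjusted p = 8.4e-07), on the log2 scale. Of 21723 genes tested, 11.5% were called lower in penis. In such sums, fewer cells of a type and less RNA per cell cannot be told apart. With all deposited barcodes in place of the filtered cells, the log2 fold-change of *Lhx2* was -3.43 and that of *Lmx1b* was -5.37, both still called. In penis 3, 1 barcode above the gene limit held 129 of the 150 *Lhx2* UMIs of that library.

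The share of cells with a UMI gave the same order of tissues. Unthinned, 10.96% of forelimb and 14.8% of hindlimb mesenchyme-like cells held an *Lmx1b* UMI, against 0.263 to 0.380% in the penis libraries. For *Lhx2* the shares were 6.57 and 6.92% in limb against 0.0876 to 0.248% in penis. *Lhx9* was seen in 6.76 and 6.03% of limb cells and in 0.759 to 0.910% of penis cells, and *En1* in 6.58 and 6.36% of limb cells and in 1.23 to 1.44% of penis cells. Penis cells were deeper, so each cell was also thinned to 2000 UMIs, which left out 613 forelimb, 306 hindlimb and 116 to 132 penis cells of this gate as shallower. The thinned share of *Lmx1b* was 4.498 and 5.67% in forelimb and hindlimb and 0.0526 to 0.123% in penis. *En1* gave 2.50 and 2.24% against 0.343 to 0.361%, *Lhx2* 3.04 and 2.86% against 0.0200 to 0.0438%, and *Lhx9* 3.51 and 2.74% against 0.179 to 0.219%. With 3 against 2 libraries an exact permutation test cannot give p below 0.1, so no test was made on shares.

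White blood-like cells gave the background. Among the 636 such cells of the 3 penis libraries no UMI of the 4 genes was found, which allows a share of up to 0.472% and a level of up to 0.597 CPM over the group. In penis mesenchyme-like cells *Lmx1b* and *Lhx2* lay below both limits in every library, so this measure does not tell them from background. *Lhx9* and *En1* lay above both limits in every penis library. The median depth by library was 6401 to 7251 UMIs in these white blood-like cells and 8949 to 10048 in mesenchyme-like cells. In limb, 1.01 and 1.52% of white blood-like cells held an *Lmx1b* UMI at a median depth of 6498 and 7756 UMIs, against 10.96 and 14.8% of the mesenchyme-like cells, whose medians were 5228 and 5901. The other 3 genes were seen in 0.239 to 0.878% of limb white blood-like cells.

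Among the limb types, *Lmx1b* was high in every connective tissue gate. Its mean over both limb libraries was 34.7 ± 14.3 CPM (SD, n = 2) in osteoblast-like, 33.5 ± 6.39 in tendon-like, 31.4 ± 0.039 in chondrocyte-like and 28.7 ± 5.77 in mesenchyme-like cells. These 4 means lie within the spread between the limb libraries, which is shared by the gates. Within each limb, tendon-like cells lay above mesenchyme-like cells, at 29.0 against 24.6 CPM in the forelimb and 38.0 against 32.7 in the hindlimb. Osteoblast- and chondrocyte-like cells did not lie above them in both limbs. These differences were not tested. The mural-like cells followed with 17.4 ± 0.298 CPM, below both libraries of each of the 4 gates. Then came keratinocyte-like cells with 4.54 ± 1.07 CPM, and the muscle-, glial-, endothelial- and white blood-like cells had means of 0.760 to 1.79.

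*Lhx2* and *Lhx9* had the same leading types. *Lhx9* averaged 26.2 ± 5.41 CPM in osteoblast-like, 21.7 ± 1.89 in chondrocyte-like and 15.3 ± 2.26 in mesenchyme-like limb cells (SD, n = 2). The osteoblast-like gate had only 43 and 27 limb cells, and its counting intervals overlapped those of chondrocyte-like cells. *Lhx9* then dropped to 6.49 ± 3.88 CPM in tendon-like and 3.30 ± 0.329 in mural-like cells. *Lhx2* averaged 24.9 ± 4.34 CPM in osteoblast-like, 14.7 ± 1.77 in chondrocyte-like, 14.2 ± 0.395 in mesenchyme-like, 9.97 ± 1.87 in tendon-like and 6.33 ± 0.823 in mural-like cells. The chondrocyte-like and mesenchyme-like means of *Lhx2* lay within their spread.

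*En1* had another order. Its mean over both limbs was highest in keratinocyte-like cells, at 33.9 CPM in forelimb and 16.1 in hindlimb, but in the hindlimb muscle-like cells lay above them. Muscle-like cells had 13.8 and 18.7 CPM, mural-like with 18.0 and 11.05, and mesenchyme-like with 13.7 and 12.2, which overlap. Osteoblast-like cells had 16.4 and 2.80 CPM on 6 and 1 UMIs. Chondrocyte-like cells had 5.26 and 4.75 CPM. No *En1* UMI was found in limb endothelial-like cells. Within the muscle-like gate, *En1* differed between classes of cells set by 2 markers of the gate. In cells with a UMI of *Pax7*, a muscle progenitor gene, and none of *Myog*, it stood at 25.7 CPM in the forelimb (93 UMIs in 408 cells) and 31.8 in the hindlimb (124 in 369 cells). In cells with a UMI of *Myog*, which marks differentiating myoblasts, and none of *Pax7*, it stood at 5.23 and 6.56 CPM (30 UMIs in each library). The other 3 genes had at most 1.38 CPM in either class. Penis libraries had no muscle-like cells, so *En1* could not be compared there.

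The difference between tissues was seen in other connective tissue gates, with few penis UMIs. In chondrocyte-like cells *Lhx9* stood at 2.62, 3.06 and 1.10 CPM in penis and at 23.1 and 20.4 in forelimb and hindlimb, and fell by 3.17 (log2, SE 0.25, adjusted p = 4.7e-07, edgeR). With 4 markers in the gate its log2 fold-change was -2.51, still called. *Lhx2* had 5 UMIs over the 3 penis libraries against 558 in limb, a fall of 4.83 (log2, SE 0.33, adjusted p = 1.8e-07, edgeR). *Lmx1b* had 2 penis UMIs against 1220, a pooled ratio of 159 with an interval of 44.0 to 1316. *Lmx1b* and *Lhx2* reached the cutoff of the filter in no penis library of this gate, so their calls are a description. Of the 13889 genes tested in chondrocyte-like cells, 8.54% were called lower in penis. *En1* was the exception in this gate. It stood at 3.41, 10.0 and 5.89 CPM in penis and at 5.26 and 4.75 in limb, with overlap, and its log2 fold-change of 0.39 (SE 0.33, adjusted p = 0.33, edgeR) was not called and was -0.13 without penis 2.

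In tendon-like cells *Lmx1b* had 1 UMI over the penis libraries and 113 and 132 in forelimb and hindlimb, a pooled ratio of 148 (26.4 to 5888). *Lhx2* had 2 penis UMIs against 74, a ratio of 22.4 (5.99 to 189). Both reached the cutoff of the filter in limb libraries only, so their calls by edgeR, beside 6.28% of 11841 genes called lower, are a description. *Lhx9* had no UMI in tendon-like penis cells and 49 in limb. Its pooled level in limb was 9.90-fold a floor of 3 UMIs over the penis group, counting error aside. *Lhx9* and *En1* did not pass the filter on low counts in this gate.

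In mural-like cells, gated by vessel coat markers, *Lmx1b* had 2 penis UMIs against 85 in limb (pooled ratio 79.4, 21.3 to 666). Marker levels of this gate differed between the tissues, with *Myh11* at 329 to 389 CPM in penis and 36.5 and 35.8 in limb. The cells of the 2 tissues may thus differ in kind. *Lhx2* stood at 0.548, 0.916 and 0.923 CPM in penis and 6.91 and 5.75 in limb, and fell by 3.01 (log2, SE 0.49, adjusted p = 4.0e-04, edgeR). *Lmx1b* and *Lhx2* reached the cutoff of the filter in limb libraries only, so these calls too are a description. *En1* stood at 4.38, 5.49 and 1.85 CPM in penis and at 18.0 and 11.05 in limb. It fell by 1.86 (SE 0.37, adjusted p = 0.0015, edgeR), but the log2 fold-change was -0.15 and not called when a gate needed 4 markers, and -1.45 and not called without the forelimb. Of 13222 genes tested, 6.47% were called lower in penis. *Lhx9* did not pass the filter, at 1.39 to 2.19 CPM in penis and 3.07 and 3.54 in limb.

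No member passed the filter in osteoblast-, glial-, endothelial- or white blood-like cells. In osteoblast-like cells *Lmx1b* had 0 UMIs in 97 penis cells and 25 in 70 limb cells. Its pooled limb level was 13.9-fold the penis floor, counting error aside. *En1* there stood at 4.11, 10.4 and 5.97 CPM in penis on 2, 4 and 2 UMIs and at 16.4 and 2.80 in limb on 6 and 1. In the penis *En1* thus had its highest levels in the osteoblast-like (6.81 ± 3.21 CPM, SD, n = 3), chondrocyte-like (6.43 ± 3.33) and mural-like (3.91 ± 1.87) gates, which overlap, and 1.74 ± 0.0611 in mesenchyme-like cells.

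**Figure D2:**
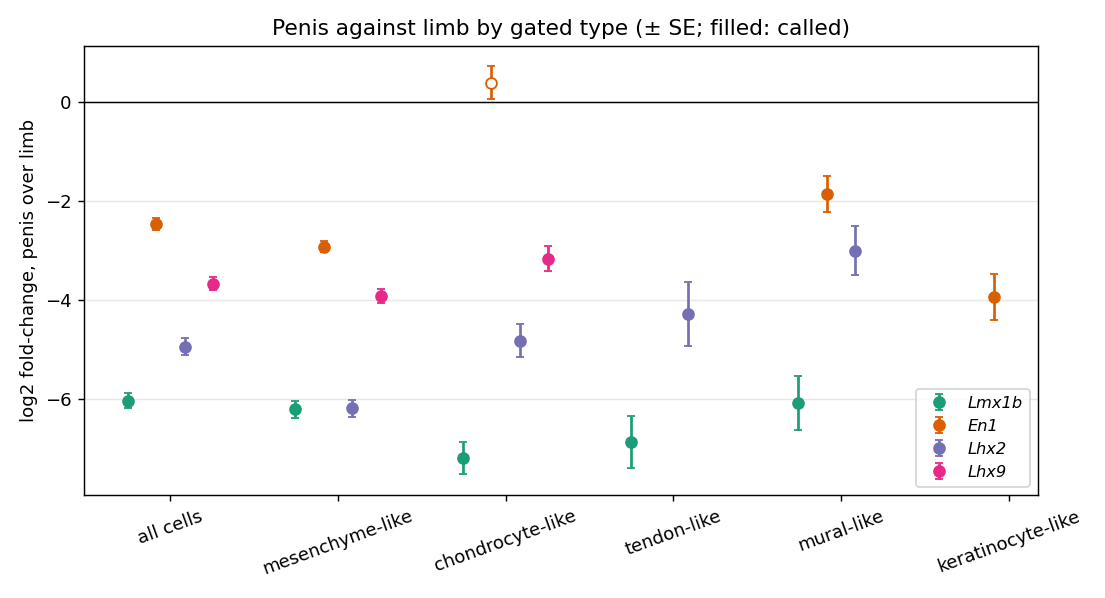
Log2 fold-change of penis over limb (± SE, edgeR) of each gene that passed the filter on low counts, by gate; filled points passed the limits. All points but 1 lie below 0, the open point is *En1* in chondrocyte-like cells (0.39), and the points of *Lmx1b* in chondrocyte-, tendon- and mural-like cells rest on 2, 1 and 2 penis UMIs.

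In the surface epithelium *En1* was the member with a clear limb signal. In keratinocyte-like cells it stood at 2.21, 1.53 and 0.819 CPM in penis and at 33.9 and 16.1 in forelimb and hindlimb, on 7, 5, 2, 32 and 17 UMIs. It fell by 3.94 in penis (log2, SE 0.46, adjusted p = 1.8e-06, edgeR), and the log2 fold-change was -4.70 without the cell richest in *En1* in each library and -3.35 without the forelimb. *En1* reached the cutoff of the filter in limb libraries only, so this call is a description. Of 12114 genes tested there, 6.28% were called lower and 5.67% higher in penis. *Wnt7a*, the dorsal ectoderm signal that *En1* restricts, stood at 5.68, 6.75 and 7.37 CPM in penis against 12.7 and 13.2 in limb, and did not pass the limits. *En1* and *Wnt7a* were found together in 1 of the 11 forelimb and 2 of the 12 hindlimb keratinocyte-like cells with *Wnt7a*, and 21 and 15 cells held *En1*. The other 3 members had few UMIs and did not pass the filter. *Lmx1b* had 4, 8 and 1 UMIs in penis and 5 and 4 in limb, and *Lhx2* had 9, 1 and 3 in penis and 1 and 4 in limb. In the hindlimb the 4 UMIs of each of these genes lay in 1 cell.

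The keratinocyte-like and mesenchyme-like sums of the same library were compared with the library as a block. In limb, *Lmx1b* was lower in keratinocyte-like than in mesenchyme-like cells, by -2.54 (log2, SE 0.41, adjusted p = 1.7e-06, edgeR), and by -3.70 without the cell richest in the gene in each library. *Lhx2* was lower there by -2.37 (SE 0.55, adjusted p = 5.2e-04, edgeR), and this was not called by DESeq2 or without the forelimb (-2.34 and -1.73). Its 5 UMIs lay in 2 limb keratinocyte-like cells, 1 in each library, so leaving out the richest cells left none. No *Lhx9* UMI was found in limb keratinocyte-like cells. The pooled mesenchyme-like level of *Lhx9* was 10.2-fold a floor of 3 UMIs over the keratinocyte-like cells of both limb libraries, counting error aside. *En1* was higher in keratinocyte-like cells by 1.04 (SE 0.29, adjusted p = 0.0031, edgeR). This call was lost without the forelimb (0.54), with all barcodes (0.91), with 4 markers in the gate (0.90), by DESeq2 (1.08, adjusted p = 0.021) and without the cell richest in *En1* (0.86). Of 19006 genes tested, 13.2% were called lower and 8.46% higher in limb keratinocyte-like cells.

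In penis the same contrast rested on few UMIs. *Lmx1b* was at 1.26, 2.45 and 0.410 CPM in keratinocyte-like cells of penis 1, 2 and 3 against 0.440, 0.321 and 0.418 in mesenchyme-like cells. Its log2 fold-change was 2.08 (SE 0.56, adjusted p = 0.0015, edgeR), and 1.24 and not called without penis 2. *Lhx2* was at 2.84, 0.307 and 1.23 CPM against 0.269, 0.173 and 0.129. Its log2 fold-change of 3.07 (SE 0.64, adjusted p = 6.1e-05, edgeR) was -0.57 and not called without the cell richest in *Lhx2* in each library, since 1 cell of penis 1 held 9 of its 13 UMIs. It was 2.34 and not called without penis 1. *En1* (0.05, SE 0.45, adjusted p = 0.93) and *Lhx9* (-2.94, SE 1.04, adjusted p = 0.014) were not called by edgeR. Of the genes tested, 12.2% were called higher in penis keratinocyte-like cells. The contrast differed between the tissues by 4.62 for *Lmx1b* (log2, SE 0.76, adjusted p = 8.2e-06, edgeR interaction), which was 3.77 and still called without penis 2. For *Lhx2* it differed by 5.44 (SE 0.86, adjusted p = 4.5e-06, edgeR), which was not called without penis 1 (4.70) or without the cell richest in *Lhx2* in each library (10.99, adjusted p = 0.13). In penis mesenchyme-like cells *Lmx1b* and *Lhx2* lay below the 0.597 CPM that white blood-like penis cells allow. Their penis contrasts and these differences between the tissues are thus a description. For 4.3% of genes the interaction was called in this direction. It was not called for *En1* (-0.996, SE 0.50, adjusted p = 0.20) or *Lhx9* (adjusted p = 0.31).

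*Lhx2* and *Lhx9* were higher in limb mesenchyme-like cells that carried the distal gene *Hoxa13*. The cells were split into those with a *Hoxa13* UMI and no *Hoxa11* UMI (881 forelimb and 1145 hindlimb cells) and those with the more proximal gene *Hoxa11* and no *Hoxa13* UMI (1030 and 1297 cells). *Lhx9* stood at 55.6 against 8.84 CPM in the forelimb and 37.6 against 6.05 in the hindlimb, *Hoxa13* class first. *Lhx2* stood at 44.7 against 11.6 and 30.7 against 8.03 CPM. *En1* went the other way, with 6.28 against 17.4 CPM in the forelimb and 8.04 against 17.8 in the hindlimb. *Lmx1b* stood at 39.8 against 24.8 and 43.7 against 39.2 CPM. The *Hoxa13* class was thus higher for the pair of distal genes and lower for *En1* in both limbs.

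With the library as a block, *Lhx9* was higher in the *Hoxa13* class by 2.60 (log2, SE 0.13, adjusted p = 2.8e-06, edgeR) and *Lhx2* by 1.89 (SE 0.12, adjusted p = 1.2e-05). *En1* was lower by -1.32 (SE 0.16, adjusted p = 5.6e-04, edgeR), which was not called by DESeq2 (adjusted p = 0.020). *Lmx1b* was not called (0.33, SE 0.13, adjusted p = 0.11). These p-values rest on the sums of only the forelimb and hindlimb libraries. Of 15204 genes tested, 0.98% were called higher and 1.11% lower in the *Hoxa13* class. Without the block, the values of *Lhx2* and *En1* stayed and their calls were lost (adjusted p = 0.011 and 0.013). In the penis, mesenchyme-like cells of the *Hoxa13* class had *Lhx2* at 0.187 to 0.371 CPM and *Lhx9* at 0.619 to 1.39 CPM. Those of the *Hoxa11* class had 0 to 0.655 and 0.819 to 1.39 CPM. Over the *Hoxa13* classes, pooled *Lhx2* was 150-fold (72.4 to 376) and *Lhx9* 48.1-fold (32.7 to 73.6) higher in limb than in penis. These folds rest on 7 and 27 penis UMIs. The penis level of *Lhx2* lay below the 0.597 CPM that white blood-like penis cells allow, so it is not told from background.

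**Figure D3:**
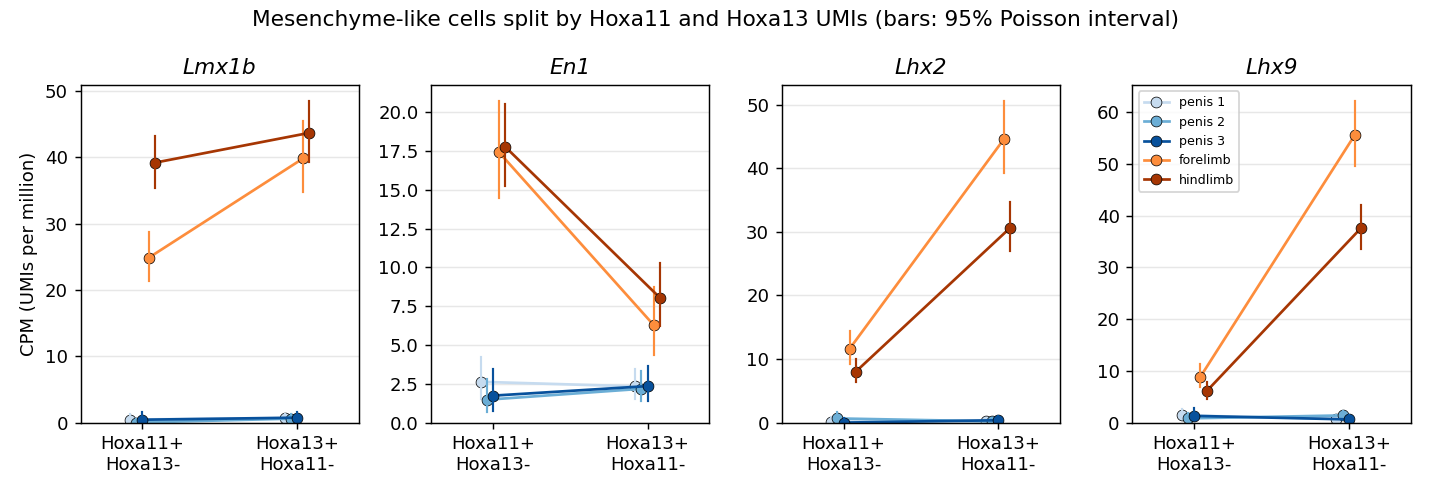
Level of each gene (CPM, linear axis from 0, a separate scale per gene) in mesenchyme-like cells with a *Hoxa11* but no *Hoxa13* UMI (left) and with *Hoxa13* but no *Hoxa11* (right); each line is a library and bars are 95% Poisson intervals. *Lhx2* and *Lhx9* rise to 30.7 to 55.6 CPM in both limbs, *En1* drops to 6.28 and 8.04, and the penis lines stay below 3 CPM.

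Within limb mesenchyme-like cells *Lhx2* and *Lhx9* were found in the same cells. After thinning to 2000 UMIs, 14.5% of forelimb cells with an *Lhx2* UMI also held *Lhx9*, against 3.16% of those without. In the hindlimb the shares were 9.41 and 2.54%. Unthinned, 189 of 788 *Lhx2* cells of the forelimb and 158 of 747 of the hindlimb held *Lhx9*. The median depth of cells with and without *Lhx2* was close, at 5184 and 5232 UMIs in the forelimb and 5881 and 5904 in the hindlimb. In chondrocyte-like cells the thinned shares of *Lhx9* were 6.47 against 4.26% and 8.504 against 3.60%. These are shares of cells of 1 library per limb, with no test.

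*En1* cells were poor in the distal pair. Thinned, 0.365% of forelimb cells with *En1* held *Lhx9* against 3.59% of those without, and 0.747 against 2.79% in the hindlimb. *Lhx2* was found in 1.39 against 3.08% and 0.652 against 2.91%. *Lmx1b* was more frequent among *En1* cells, at 6.48 against 4.45% in the forelimb and 9.23 against 5.59% in the hindlimb. For *Lmx1b* and *Lhx2* the shares differed little in the forelimb (4.24% of *Lhx2* cells against 4.51%) and were lower among *Lhx2* cells in the hindlimb (3.97 against 5.72%).

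**Figure D4:**
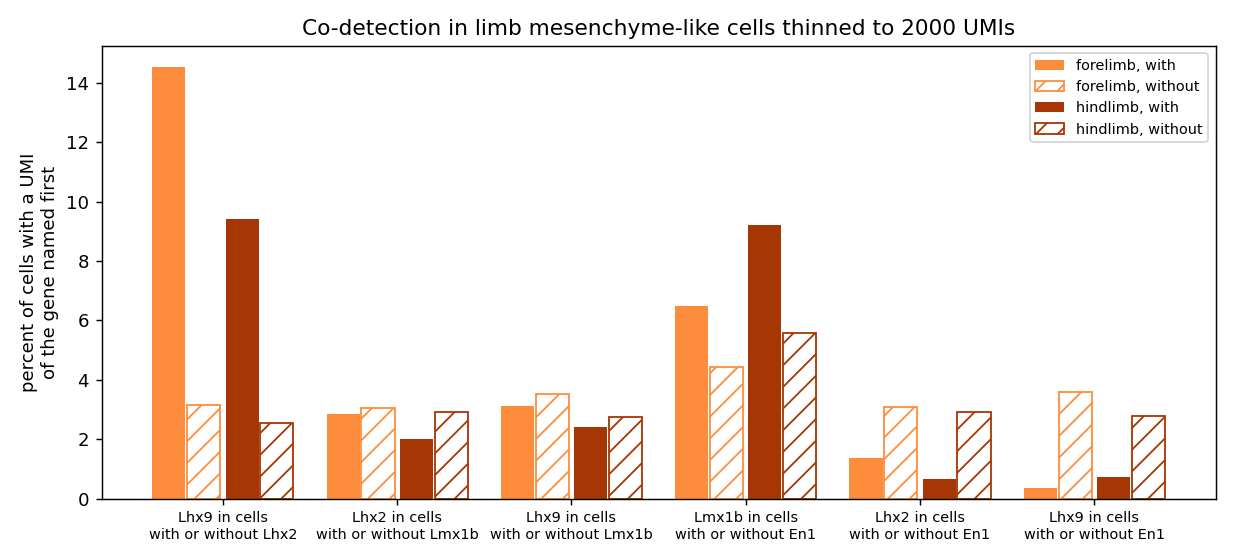
Percent of limb mesenchyme-like cells with a UMI of the gene named first, among cells with (filled) and without (hatched) a UMI of the second gene, after thinning to 2000 UMIs; bars are 1 library each. *Lhx9* is found in 14.5 and 9.41% of cells with *Lhx2*, and in 0.365 and 0.747% of cells with *En1*.

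The genes that differed most between limb mesenchyme-like cells with and without a member's UMI were ranked by the smaller of the 2 limb folds, with 5 CPM added. For *Lhx9* they were *Msx1*, *Tfap2b*, *Msx2*, *Dach1* and *Prr5l*. *Msx1*, a distal homeobox gene, stood at 216 CPM with and 22.4 without *Lhx9* in the forelimb, and at 185 and 20.02 in the hindlimb. For *Lhx2* they were *Dach1*, *Kif26b*, *Msx1*, *Lhx9* and *Tfap2b*, so the lists share *Dach1*, *Msx1* and *Tfap2b*. *Dach1*, a transcription cofactor gene, stood at 370 and 80.1 CPM in the forelimb and 472 and 81.5 in the hindlimb, with *Lhx2* first. For *Lmx1b* they were *Gpc5*, *Lrrc7*, C130021I20Rik, *Kera* and *Schip1*, with smaller differences. *Gpc5*, a glypican, stood at 86.4 and 25.8 CPM and at 107 and 30.9. *Kera* is also a tendon marker of the gates. For *En1* in keratinocyte-like cells, on 21 and 15 cells with a UMI, they were *Syt1*, *Lrp1b*, *Dlx1*, *Mb* and Gm13481. *Dlx1*, a homeobox gene, stood at 30.9 against 2.67 and 53.0 against 3.05 CPM. With so few cells, the values of *Dlx1* and *Mb* rest on a handful of UMIs in each limb. Those of *Lrp1b* and Gm13481 rest on very few UMIs in the hindlimb. All the genes named here were picked for the largest folds and not tested.

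Likeness over the 47 sums per library and gate was ranked among genes with a mean of at least 5 CPM, for every member. Among these, *Lhx2* was most like *Lmx1b* (Pearson r of log2(CPM + 1) 0.91), then *Nefl* (0.86), *Ubap2* (0.82), *Irx1* (0.81) and *Gabrg3* (0.80). For *Lmx1b* the leading genes with a mean of at least 5 CPM were *Nefl* (0.87), *Irx1* (0.85), *Pate2* (0.83), *Alg13* (0.83) and *Snd1* (0.82). *Lhx9* was most like *Usp36* (0.88), *Morn1* (0.85), *Med26* (0.85), *Setd2* (0.85) and *Rbm4b* (0.82). *En1* had lower values, with *Ptges3l* (0.77), *Slc4a4* (0.76), *Palld* (0.75), *Stub1* (0.75) and *Bex3* (0.75). *En1* reached 0.48 to 0.50 with the other members, and *Lhx9* 0.79 with *Lmx1b* and 0.80 with *Lhx2*. The sums come from 5 libraries and share depth and tissue, so these values are a description.

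Relatives of the members moved in both directions between the tissues. Of the 10 relatives listed, 7 were tested in mesenchyme-like cells, 2 rose and 1 fell in penis, beside 12.6% of all genes called higher and 12.7% lower. The median log2 fold-change of the list was -0.61, against 0.01 over all genes. *Isl1*, a LIM homeodomain gene of early hindlimb and genital tissue, stood at 248, 249 and 254 CPM in penis and at 0.239 and 3.097 in forelimb and hindlimb, and rose by 7.20 (log2, SE 0.53, adjusted p = 3.8e-06, edgeR). *Isl2* rose by 5.90 (SE 0.19, adjusted p = 3.2e-08), from 0.0984 and 0.154 CPM in limb to 7.69 to 8.07 in penis. *Isl1* reached the cutoff of the filter in 1 limb library and *Isl2* in none, so both passed through the group where they were high and their calls are a description. *Lmx1a*, the closest relative of *Lmx1b*, stood at 2.06 to 2.79 CPM in penis and at 5.07 and 4.46 in limb, and fell by 1.05 (SE 0.16, adjusted p = 3.2e-04). In keratinocyte-like cells 2 of the 10 were tested, *Isl1* and *Isl2*. Both passed the filter through the penis libraries only, with *Isl2* at 0 UMIs in limb, so their higher level in penis is a description, beside 5.67% of all genes called higher. Between the *Hoxa13* and *Hoxa11* classes 3 were tested, and *Lmx1a* was lower in the *Hoxa13* class by -1.51, beside 1.11% of all genes called lower.

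All 10 listed LIM cofactors and LIM-only proteins were tested in mesenchyme-like cells. Of these 2 rose and 1 fell, with a median of -0.19, beside 12.6% of all genes called higher and 12.7% lower. The genes called there were all LIM-only, and *Ldb1* and *Ldb2* were not called. *Lmo4* stood at 372 to 375 CPM in penis and at 89.1 and 97.6 in limb and rose by 1.97 (log2, SE 0.06, adjusted p = 3.5e-08, edgeR). *Lmo3* rose by 1.41 and *Lmo1* fell by 1.12. In keratinocyte-like cells 8 were tested, *Ldb2* rose by 1.68 and *Lmo1* fell by 1.198, beside 5.67% of all genes called higher and 6.28% lower. Between the *Hoxa13* and *Hoxa11* classes 9 genes of this list were tested and 0 were called by edgeR, beside 0.98% of all genes called higher and 1.11% lower.

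Of 13 limb bud axis signals, 11 were tested in mesenchyme-like cells, 3 rose and 2 fell (median -0.33), beside 12.6% of all genes called higher and 12.7% lower. *Bmp4* stood at 112 to 118 CPM in penis and at 40.4 and 38.2 in limb and rose by 1.51 (log2, SE 0.06, adjusted p = 1.4e-07, edgeR). *Fgf9* rose by 1.86 and *Rspo2*, a Wnt agonist of the ridge, by 1.13. *Dkk1*, a Wnt antagonist, stood at 0.296 to 0.482 CPM in penis and at 11.2 and 9.29 in limb and fell by 4.69 (SE 0.18, adjusted p = 7.9e-08). *Fgf17* also fell, by 1.66, at no more than 0.450 CPM in any library, and as it reached the cutoff in limb libraries only, its call is a description. In keratinocyte-like cells 5 were tested, none rose and *Bmp7* fell by 1.24, beside 6.28% of all genes called lower. Between the classes of limb mesenchyme, 8 were tested, beside 0.98% of all genes called higher and 1.11% lower in the *Hoxa13* class. *Fgf9* and *Dkk1* were higher in the *Hoxa13* class by 1.401 and 1.04, and *Grem1*, a BMP antagonist, was lower by -1.31.

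All 9 distal and proximal transcription factors listed were tested in mesenchyme-like cells, 4 rose in penis and none fell (median 0.73), beside 12.6% of all genes called higher and 12.7% lower. *Msx1* stood at 190, 171 and 177 CPM in penis and at 35.6 and 30.4 in limb and rose by 2.41 (log2, SE 0.09, adjusted p = 6.4e-08, edgeR). *Msx2* rose by 2.39, *Hoxa13* by 1.35 and *Meis1*, a proximal factor, by 1.05. In keratinocyte-like cells 7 were tested and *Meis1* and *Meis2* rose, by 3.07 and 1.94, beside 5.67% of all genes called higher. Between the classes of limb mesenchyme, with *Hoxa11* and *Hoxa13* left out because they defined the classes, 7 were tested, again beside 0.98% called higher and 1.11% lower. *Msx1* was higher in the *Hoxa13* class by 2.89, *Msx2* by 2.59, *Hoxd13* by 2.52 and *Hoxd12* by 1.89, and *Meis1* was lower by -1.39. *Msx1*, *Msx2* and *Hoxa13* were thus higher in penis than in limb mesenchyme-like cells, where *Lhx2* and *Lhx9* were lower, and *Msx1* and *Msx2* moved with *Lhx2* and *Lhx9* between the classes within limb.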

How the data were processed

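The authors dissociated P6 penis, forelimb and hindlimb, made libraries with the 10X Single Cell 3′ v3.1 kit and counted UMIs with Cell Ranger 7.0.0 against mm10, per the submitters' notes. The deposited matrices hold raw counts of UMIs for each gene in each barcode. Whether introns were counted is not given in the sources used here. Cells were filtered at the study's limits, read as genes detected per cell (500 to 6000 in penis, 100 to 9000 in forelimb, 100 to 9500 in hindlimb), with at most 5% (penis) or 10% mitochondrial UMIs and log10 genes per log10 UMI of at least 0.8. Doublets were not called. Barcodes that met the marker limit of several types other than mesenchyme were left out of every gate. Cells of the connective tissue gates could also hold mesenchyme markers. Most marker lists were those the study chose on these samples, and the number of markers a gate needs (3) was set after the files were seen. The 4 genes and all lists were chosen with earlier results of these data known.

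Counts were summed per library and gate. edgeR 4.0.16 (R 4.3.3, limma 3.58.1) was run with TMM normalization, filterByExpr and the quasi-likelihood test, on 3 penis against 2 limb libraries, for gates with at least 20 cells in every library. Each SE was derived from the test, by dividing the size of the log2 fold-change by the root of its F. The design was checked on simulated data. Alternatives were DESeq2 1.42.0, no filter, all barcodes, 4 markers per gate, no library block, leaving out each library, and, added after seeing the data, leaving out the keratinocyte-like cell richest in a gene. Named genes were the members, list genes past the limits, and the 5 leading genes by likeness and by fold between cells with and without a member's UMI; Wnt7a and the list genes named in the Hoxa13 comparison were chosen after their values were seen. Shares and intervals (95%, exact Poisson or binomial) used SciPy 1.17.1. Promoters came from RefSeq (GRCm38.p6). Matching was by symbol.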

Additional observations from a re-analysis of the deposited data

Results flagged for a closer look

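The keratinocyte-like against mesenchyme-like contrast differed between penis and limb for *Lmx1b*, by 4.62 (log2, edgeR interaction, adjusted p = 8.2e-06), and for *Lhx2*, by 5.44 (adjusted p = 4.5e-06). In limb both members were lower in keratinocyte-like than in mesenchyme-like cells, on 9 keratinocyte-like UMIs of *Lmx1b* and 5 of *Lhx2*. The limb value of *Lhx2* was not called by DESeq2 and was -1.73 without the forelimb. In penis both were higher in keratinocyte-like cells in the fit, on few UMIs. *Lmx1b* was at 0.410 against 0.418 CPM in penis 3, and its penis call was lost without penis 2 (1.24, adjusted p = 0.20). *Lhx2* turned to -0.57 in penis without the cell richest in it in each library (adjusted p = 0.75), and its difference between the tissues was then not called (10.99, adjusted p = 0.13), nor without penis 1 (4.70, adjusted p = 0.011). The penis side rests on 13 UMIs of each gene in 985 keratinocyte-like cells. In penis mesenchyme-like cells *Lmx1b* and *Lhx2* were not told from background, so these contrasts are a description. Within keratinocyte-like cells alone, pooled *Lmx1b* was 3.07-fold (1.16 to 7.75) and *Lhx2* 1.70-fold (0.475 to 5.09) higher in limb than in penis. The pooled level of neither gene was thus higher in penis keratinocyte-like cells than in those of limb. For *Lhx2* the interval also allows a higher level in penis.

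*Lhx2* UMIs were also found in barcodes that the filters removed, above the level that a count of 0 allows. In penis 3, 1 barcode with 201720 UMIs and 10959 genes held 129 of the 150 *Lhx2* UMIs of the library. It carried markers of several types. In penis 1, such a barcode with 149532 UMIs held 25, and a keratinocyte-like barcode with 30395 UMIs and 6560 genes held 11. The kept cells of penis 1, 2 and 3 held 34, 19 and 14 *Lhx2* UMIs. The cause was not tested.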

How the results depend on the processing

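Of 309 recomputed log2 fold-changes of members, 283 kept their direction and their side of the limits. For penis against limb, no paired analysis was possible because the penises came from P6 mice and the limbs from embryos. Whether the forelimb and hindlimb libraries shared embryos is not given, and they were taken as independent. The comparisons within libraries had the library as a block. The 4 members stayed called in penis against limb, over all and over mesenchyme-like cells, under every alternative run, as did *En1* in keratinocyte-like cells. Leaving out a library gave *En1* -0.13 to 0.74 in chondrocyte-like cells and -2.18 to -1.45 in mural-like cells, where 4 markers per gate gave -0.15, and *Lhx2* -3.17 to -2.76 in mural-like cells. In limb keratinocyte-like against mesenchyme-like cells, *En1* was 1.08 by DESeq2, 0.91 with all barcodes, 0.90 with 4 markers, 0.86 without the richest cell and 0.54 to 1.41 leaving out a library. *Lhx2* there was -2.34 by DESeq2 and -3.66 to -1.73 leaving out a library, where the lone limb library was assumed to vary like the others. In penis, without the richest cell, *Lmx1b* was 1.71, *En1* -0.94, *Lhx2* -0.57 and *Lhx9* -7.75, the last a fit against 0 UMIs and no fold, now called. All barcodes gave *Lmx1b* 2.76, *En1* -0.65 and *Lhx9* -2.94, the last now called. Leaving out a library gave *Lmx1b* 1.24 to 2.49, *En1* -0.29 to 0.30, *Lhx2* 2.34 to 3.54 and, on 1 UMI or none, *Lhx9* -7.88 to -2.21. The difference penis minus limb was 5.25 for *Lmx1b* and -1.57 and called for *En1* with all barcodes. For *Lhx2* it was 10.99 and not called without the richest cell, a fit against limb sums at 0, and 4.70 to 6.72 leaving out a library. Between the *Hoxa13* and *Hoxa11* classes, 318 genes were called, 146 by DESeq2, 491 without the filter and 83 without the library block. *En1* was -1.34 by DESeq2 and -1.32 without the block, *Lhx2* 1.90 without it, all not called; leaving out a library there leaves no replicate and was not run. The shares of limb mesenchyme-like cells with *Lmx1b*, *En1*, *Lhx2* and *Lhx9* were 2.73, 1.2, 1.55 and 1.75% thinned to 1000 UMIs and 9.08, 4.81, 4.57 and 4.31% at 4000. The cause of these changes was not tested, and the penis keratinocyte-like values rest on 14 UMIs or fewer for each member.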

Other observations

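In limb mesenchyme-like cells with *En1*, the 4 genes with the largest fold over cells without it were *Lrrc7*, *Irx1*, *Casz1* and *Arhgdib*, chosen after their values were seen. *Irx1* stood at 98.6 against 39.2 CPM in the forelimb and 94.6 against 28.5 in the hindlimb. *Lrrc7*, which was also among the leading genes of *Lmx1b* cells, stood at 125 against 45.2 and 149 against 43.3 CPM. *Msx1* was lower in these cells, at 4.14 against 38.5 and 6.10 against 32.4 CPM. Cells with *En1* were deeper than those without, with a median of 6546 against 5135 UMIs in the forelimb and 7117 against 5815 in the hindlimb, and its part in these folds was not tested.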
